A study of Mus musculus with 19 samples.

Results

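Extrachromosomal circular DNA (eccDNA) was examined at *Fhit*, *Wwox*, *Macrod2* and *Naaladl2*, 4 of the 8336 genes in the table of the study. They were chosen by name, as very long genes whose counterparts lie at common fragile sites, and no measured value enters the rule. All 4 had an eccDNA in more ALS than control animals. Their mean levels were higher in ALS, as were those of 86.5% of all genes and 97% of the genes longer than 500 kb. *Macrod2*, with an eccDNA in 9 of 9 ALS and 3 of 10 control animals, was the 1 of the 4 that passed the thresholds used here, with a two-sided p, for a gene called higher in ALS, as did 1.33% of all genes and 24.1% of the genes longer than 500 kb. That call was lost after correction over all genes and with the eccDNA load of the library as a covariate. *Fhit* was one of the 2 genes of the table that held an eccDNA in as many as 6 control animals.

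EccDNA was purified from the cervical spinal cord of 9 male B6.Cg-Tg(SOD1*G93A)1Gur/J mice (ALS), which constitutively overexpress mutant human SOD1 (hSOD1G93A), and of 10 sex- and age-matched C57BL/6J mice (Control). The ALS animals entered the study once motor symptoms of score 1 or 2 had appeared at 18 to 21 weeks of age, and mutants without timely symptoms were left out, so that the group holds symptomatic animals alone. The labels do not say that the controls were littermates. Each animal gave 1 library, from whole tissue, in which eccDNA from more cells and more eccDNA per cell cannot be told apart.

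Common fragile sites are chromosomal regions that break or form gaps when replication is slowed. Many of them lie within very long genes, where transcription of a long unit and sparse replication origins are thought to meet, and long genes of this kind are also recurrent break sites in neural progenitor cells. A circle can form when a piece of a chromosome is cut out and its ends are joined, so that breakage is one of the known routes to eccDNA. *Fhit* encodes a histidine triad hydrolase that cleaves diadenosine triphosphate and is lost by deletion in many tumours. *Wwox* encodes an oxidoreductase with WW domains, and its inherited loss in humans causes epilepsy and ataxia. *Macrod2* encodes a hydrolase that removes ADP-ribose from proteins after DNA damage. *Naaladl2* encodes a membrane protein that resembles glutamate carboxypeptidase II, an enzyme that releases glutamate from a neuropeptide.

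On the mm10 build, *Macrod2* (ENSMUSG00000068205.14, chr2:140395309-142392966, plus strand) spans 1998 kb and is the gene of rank 7 by length among the 8088 genes that could be placed. *Fhit* (ENSMUSG00000060579.13, chr14:9550092-11162035, minus strand) spans 1612 kb and has rank 11. *Naaladl2* (ENSMUSG00000102758.3, chr3:23798102-25144261, minus strand) spans 1346 kb and has rank 21. *Wwox* (ENSMUSG00000004637.15, chr8:114439655-115352708, plus strand) spans 913.1 kb and has rank 73. These genes are almost entirely intron, since exons cover 0.0925% of *Fhit*, 0.516% of *Macrod2*, 0.773% of *Naaladl2* and 1.11% of *Wwox*.

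The table gives 1 sum per gene, so an eccDNA can be placed more closely only where it also overlaps a gene nested in an intron. The narrowest such interval is Gm24062, a small non-coding RNA gene of 266 bp within a *Naaladl2* intron, which held 2 split reads in ALS 9. It is shown because it is the shortest stretch of these 4 genes that at least a part of a known circle must overlap. The window chr3:24718699-24718998 of the plus strand (mm10) follows, with the bases of Gm24062 in capitals and 17 flanking bases on either side.
Gm24062: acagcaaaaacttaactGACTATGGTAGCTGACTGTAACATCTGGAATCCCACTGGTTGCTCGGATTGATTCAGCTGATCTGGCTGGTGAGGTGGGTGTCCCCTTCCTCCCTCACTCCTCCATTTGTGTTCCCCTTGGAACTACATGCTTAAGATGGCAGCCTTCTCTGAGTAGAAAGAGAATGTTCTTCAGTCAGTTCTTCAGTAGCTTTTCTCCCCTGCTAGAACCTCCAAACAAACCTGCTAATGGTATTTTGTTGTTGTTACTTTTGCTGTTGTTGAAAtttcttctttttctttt

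Reads that span the junction of a circle map in 2 pieces and are called split reads. The deposited level of a gene is the log2 of PpGC + 1, where PpGC is the sum of split reads of all eccDNAs that overlap the gene, scaled up to the longest gene. With the scaling undone, the 42 values above 0 in the 4 genes came out as whole numbers of split reads in 42 of 42 cases. As an eccDNA was kept from 2 split reads on, a value of 2 or 3 stands for exactly 1 eccDNA, a higher value may stand for 1 or several, and a value of 0 means that none was seen at this depth. The libraries differed in load. ALS libraries held an eccDNA in 694 to 2204 genes (median 1114) and control libraries in 57 to 723 (median 157.5), with 74016 to 391394 and 3583 to 123387 split reads on genes. Over all 8336 genes the mean was higher in ALS for 86.5%, with a median difference of 1.19, and over the 232 genes longer than 500 kb for 97%, with a median difference of 3.10.

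*Fhit* was the member found most often in controls. In ALS it held an eccDNA in 8 of 9 animals, with a lowest, median and highest split read count of 0, 48 and 427, and in controls in 6 of 10, with 0, 2 and 68. ALS 1 had none although its library was rich in other genes, and ALS 8 had the most. The groups overlapped widely, and 4 ALS animals exceeded the highest control. The mean log2 level was 5.81 ± 3.13 (SD, n = 9) in ALS and 2.97 ± 3.01 (SD, n = 10) in Control, a difference of 2.84 with a standard error of 1.41 and a 95% interval of -0.13 to 5.81 (p = 0.0628, two-sided exact permutation test with all 92378 assignments of the group labels). Presence in 8 of 9 against 6 of 10 animals gave p = 0.303 by the two-sided Fisher's exact test. Where an eccDNA was present, the log2 level was 6.54 ± 2.40 (SD, n = 8) in ALS and 4.95 ± 2.13 (SD, n = 6) in Control. The *Fhit* difference therefore did not pass the threshold, and its interval still allows values from slightly below 0 to above 5.

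*Wwox* was the rarest of the 4. It held an eccDNA in 5 of 9 ALS animals, with 6, 7, 14, 150 and 421 split reads, and in 1 of 10 controls, Control 2, with 2 split reads and thus 1 eccDNA. All 5 positive ALS animals lay above that control, while the other 4 ALS animals shared the value 0 with 9 controls. Its mean log2 level was 4.07 ± 4.33 (SD, n = 9) in ALS and 0.342 ± 1.08 (SD, n = 10) in Control, a difference of 3.73 with a standard error of 1.41 and a 95% interval of 0.75 to 6.71 (p = 0.0186, two-sided exact permutation test). The Fisher's exact test of presence gave p = 0.0573. The p of the call, taken two-sided here because the study's methods do not state the sides of the test, was 0.0171 and missed the 0.01 required, while the same p taken one-sided was 0.00853 and passed it. Leaving out ALS 1, ALS 4, ALS 5 or ALS 6, each without a *Wwox* eccDNA, raised the difference to 4.24 and made the gene pass.

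*Macrod2* held an eccDNA in every ALS animal. The split reads were 2, 2, 10, 10, 13, 21, 92, 242 and 7924 in the ALS animals, and 2, 2 and 84 in the 3 positive controls, with 0 in the other 7. The 2 lowest ALS animals, ALS 4 and ALS 7, carried exactly 1 eccDNA each and stood at the level of Control 2 and Control 8, so that the groups overlapped, and 3 ALS animals exceeded the highest control. The mean log2 level was 6.14 ± 3.69 (SD, n = 9) in ALS and 1.24 ± 2.44 (SD, n = 10) in Control, a difference of 4.90 with a standard error of 1.42 and a 95% interval of 1.91 to 7.89 (p = 0.00202, two-sided exact permutation test). Presence in 9 of 9 against 3 of 10 animals gave p = 0.0031 by Fisher's exact test. With a p of the call of 0.00304 it passed, as did 1.33% of all genes and 24.1% of the genes longer than 500 kb, and it ranked 50 by that p. It was called in each of the 19 fits that left out 1 animal. The call was lost with equal totals per library (difference 3.77, p of the call 0.0188), with a pseudocount of 100 (1.32, p of the call 0.106) and with the load of the library as a covariate (0.0743, p = 0.975 by permutation). Without ALS 8, the library that held 7924 of the 8316 ALS split reads, the difference was 3.90 (exact permutation p = 0.00427).

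*Naaladl2* held an eccDNA in 8 of 9 ALS animals, with 2 to 341 split reads and a median of 37 over the 9, and in 2 of 10 controls. These were Control 8 with 4 split reads and Control 1 with 2599, the highest value of the gene in any animal. No ALS animal exceeded Control 1, and 2603 of the gene's split reads lay in controls against 962 in ALS. The mean log2 level was 6.09 ± 3.61 (SD, n = 9) in ALS and 1.69 ± 4.17 (SD, n = 10) in Control, a difference of 4.40 with a standard error of 1.80 and a 95% interval of 0.61 to 8.20 (p = 0.0258, two-sided exact permutation test). Presence in 8 of 9 against 2 of 10 animals gave p = 0.00548 by Fisher's exact test. The p of the call, 0.0256, missed the threshold. It passed without Control 1, with a difference of 5.67 (p of the call 0.000408, exact permutation p = 0.00115), and without ALS 7, the ALS animal that had none, with a difference of 5.16 (p of the call 0.00956, exact permutation p = 0.0109).

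**Figure D1:**
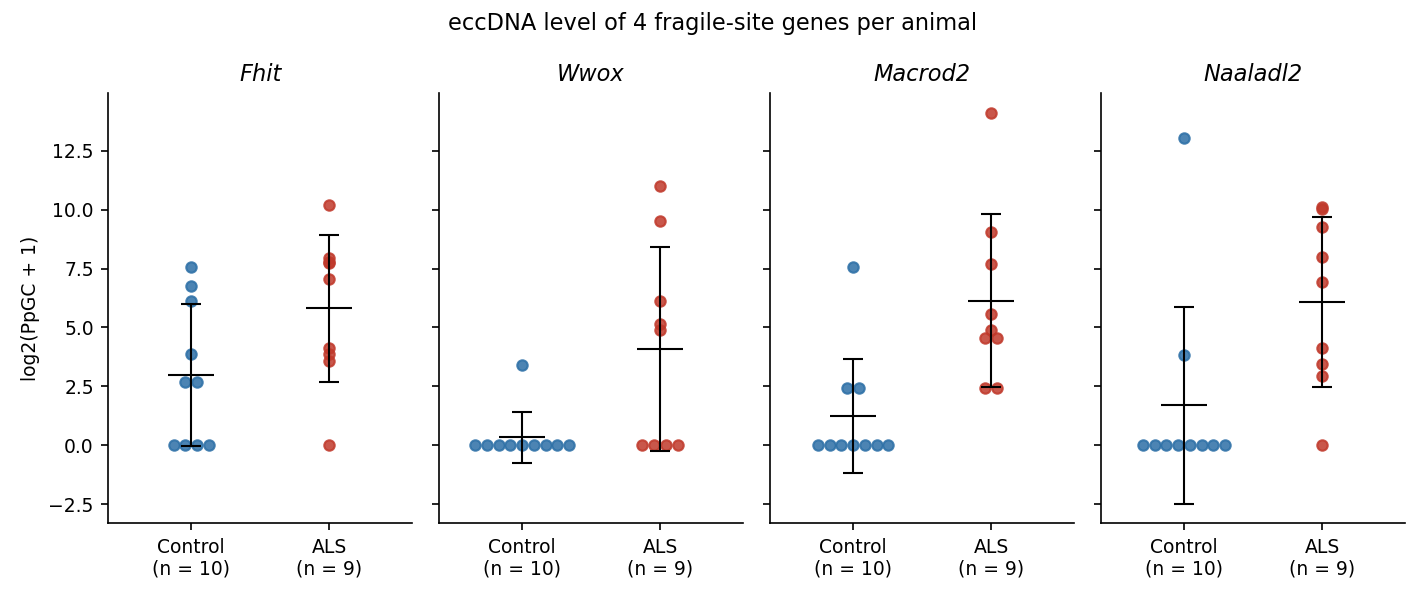
Level of the 4 genes in each animal, as log2(PpGC + 1), which is scaled for gene length. Points are animals, long horizontal lines are means and bars are the SD. The highest point of *Macrod2* is an ALS animal at 14.10, while that of *Naaladl2* is a control at 13.06.

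After Benjamini-Hochberg adjustment over all 8336 genes, the p of the call was 0.382 for each of the 4 genes, so that none passed the correction, and limma's adjusted p was lowest for *Macrod2*, at 0.192. Each of the 4 genes had 1 test of its level, which alone decided the call, and 1 of its presence, and the further tests printed are alternatives to the test of the level. In ALS, the length-scaled mean levels followed the order *Macrod2*, *Naaladl2*, *Fhit* and *Wwox*, with neighbouring means that differed by less than their SD. The medians gave another order, with *Fhit* at 7.06, *Naaladl2* at 6.94, *Wwox* at 4.91 and *Macrod2* at 4.90. In controls the order of the means was *Fhit*, *Naaladl2*, *Macrod2* and *Wwox*, again within the SD of the animals.

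**Figure D2:**
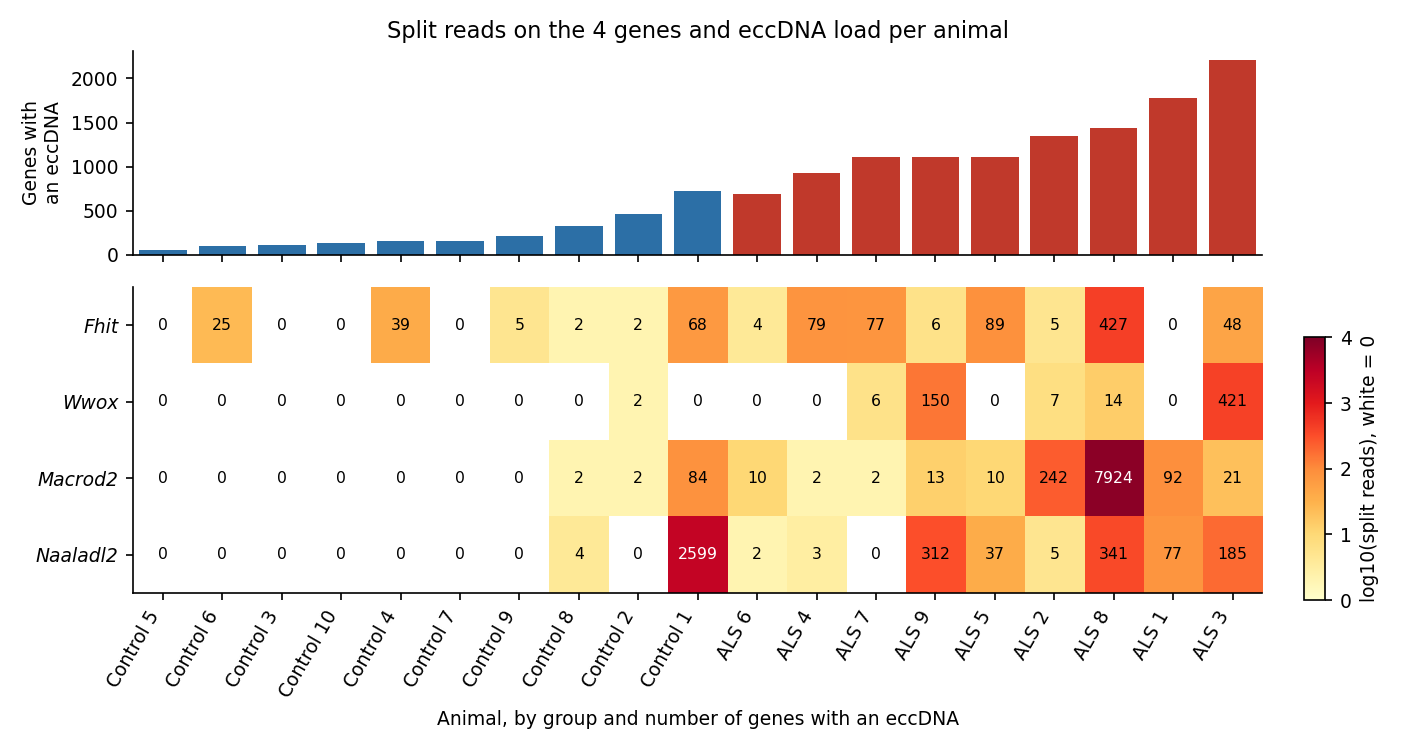
Split reads of the 4 genes in each animal (lower panel, numbers in cells, colour on a log10 scale) below the load of the same library, its count of genes holding an eccDNA (upper panel), with animals ordered by load within each group. Controls without any of the 4 genes had at most 160 genes with an eccDNA, and the 3 controls with the most genes held 3 members each.

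Among controls, the 4 genes were found mostly in the libraries with the highest load. Control 1, Control 2 and Control 8, which had the most genes with an eccDNA (723, 462 and 330), each held 3 of the 4. Control 4, Control 6 and Control 9 held *Fhit* alone, and the other 4 controls held none. ALS animals held 3.33 ± 0.707 (SD, n = 9) of the 4 genes and controls 1.20 ± 1.32 (SD, n = 10), and ALS 1, the ALS library with the second highest load, was the one with as few as 2. With this load as a covariate, the difference was 1.89 for *Fhit* (p = 0.497), -0.849 for *Wwox* (p = 0.73), 0.0743 for *Macrod2* (p = 0.975) and -2.76 for *Naaladl2* (p = 0.337), by permutation of the residuals with 100000 resamples, so that none passed and 2 of the 4 turned negative. The load itself separated the groups except for ALS 6, which lay below Control 1, so that load and genotype can barely be told apart in these animals.

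Split reads are copied by rolling circle amplification, and a few circles can take much of a library. The *Macrod2* reads of ALS 8 made up 2.49% of that library's split reads on genes and ranked 13 among its 1398 placed genes. The *Naaladl2* reads of Control 1 made up 2.65% of its library and ranked 9 of 709. At the other end, *Macrod2* was the gene with the lowest length-scaled level in ALS 4 and in ALS 7. As a share of the library, means therefore rested on few animals. *Fhit* had a mean of 373 per 1000000 split reads on genes in ALS and 430 in Control (p = 0.818, two-sided exact permutation test), while its medians were 246 and 69.8, and the control mean was 355 without Control 4 and 285 without Control 6. *Macrod2* stood at 3270 and 99.6 on this scale (exact permutation p = 0.0392), but at 565 in ALS without ALS 8 and at 15.5 in Control without Control 1, and its ALS median was 36.1. *Wwox* stood at 328 and 11.3 (exact permutation p = 0.048), but at 71.6 in ALS without ALS 3. *Naaladl2* stood at 440 and 2650 (exact permutation p = 0.999), with a control mean of 5.94 without Control 1 and medians of 102 in ALS and 0 in Control.

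The depth of the calls was shallow in part. Exactly 1 eccDNA explained the value in 2 ALS and 2 control animals for *Macrod2*, in 2 ALS animals for *Naaladl2*, in 2 controls for *Fhit* and in 1 control for *Wwox*. Counting an animal as positive from 10 split reads on, a minimum chosen after the data were seen, left *Fhit* in 5 ALS and 3 control animals, *Wwox* in 3 and 0, *Macrod2* in 7 and 1, and *Naaladl2* in 5 and 1. All 4 genes kept more positive animals in ALS, but the share of all genes that did so at this minimum was not computed. The presence of *Naaladl2* then gave p = 0.0573 by Fisher's exact test, while that of *Macrod2* gave p = 0.00548.

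The genes were also compared by the animals that held them. *Macrod2* and *Naaladl2* were in the same state, both present or both absent, in 17 of the 19 animals, and occurred together in 8 ALS and 2 control animals. *Fhit* and *Macrod2* shared their state in 15 animals, *Fhit* and *Naaladl2* and also *Wwox* and *Macrod2* in 13, and *Wwox* with *Fhit* or with *Naaladl2* in 11. *Wwox* and *Naaladl2* occurred together in 4 ALS animals and no control. These counts are a description, since all genes share the load of each library.

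Recurrence across animals set *Fhit* and *Macrod2* at the upper end of the table. In controls an average gene of the table held an eccDNA in 0.292 animals and a gene longer than 500 kb in 1.49, while *Fhit* held one in 6, *Macrod2* in 3, *Naaladl2* in 2 and *Wwox* in 1. Among all genes, 6 were present in 5 or more controls, and their names, given after the values were seen, are *Auts2* and *Fhit* with 6 and *Fars2*, *Fgfr2*, *Lrmda* and *Magi2* with 5. In ALS an average gene held an eccDNA in 1.40 animals and a gene longer than 500 kb in 5.07. *Macrod2* was one of 8 genes present in all 9 ALS animals, and *Fhit* and *Naaladl2* were among the 37 present in 8 or more, whereas *Wwox*, in 5, lay at the median of the long genes. The differences of the 4 genes had a median of 4.07 and a range of 2.84 to 4.90, and 3 of the 4 had an exact p under 0.05, as had 3.72% of all genes and 46.6% of the genes longer than 500 kb.

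**Figure D3:**
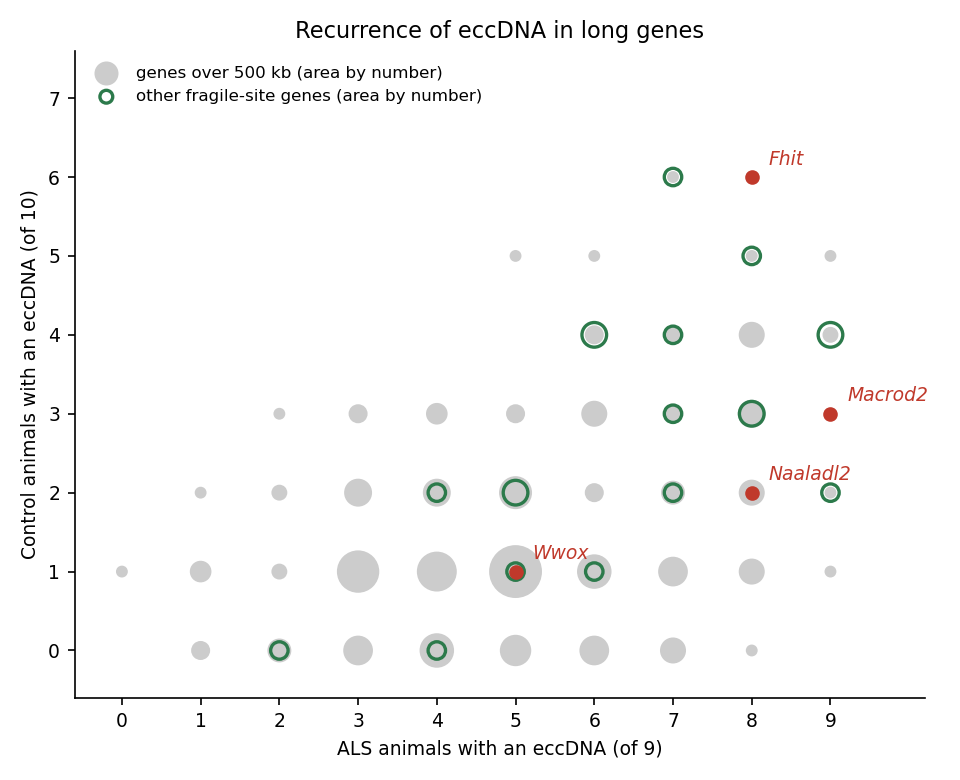
Number of ALS animals (horizontal axis, of 9) and control animals (vertical axis, of 10) with an eccDNA for the genes longer than 500 kb (grey, area by number of genes), for other fragile-site genes (green rings, area by number of genes) and for the 4 genes (red). *Fhit* lies at 8 and 6, *Macrod2* at 9 and 3, *Naaladl2* at 8 and 2 and *Wwox* at 5 and 1.

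Nested genes placed a few of the circles. Of the annotated genes that overlap the members, 2 of 9 in *Macrod2* and 1 of 5 in *Naaladl2* were in the table, and 0 of 10 in *Fhit* and 0 of 4 in *Wwox*. *Flrt3*, which encodes a cell adhesion protein that guides axons, lies in a *Macrod2* intron at chr2:140650914-140671469 (minus strand), 255606 bp from the *Macrod2* start. It held 13 of the 84 *Macrod2* split reads of Control 1 and 2 of the 92 of ALS 1, which leaves 71 and 90 reads elsewhere in the gene. *Macrod2os1*, an antisense transcript at chr2:141230431-141286991 (minus strand), 835123 bp from the start and also within an intron, held 10 of the 21 reads of ALS 3, or 47.6%. Gm24062, the interval printed above, held 2 of the 312 *Naaladl2* reads of ALS 9, 425281 bp from the *Naaladl2* start and within an intron of 231401 bp.

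Each of these reads enters both genes. After scaling for length the short gene then stood above the long one, at a log2 level of 15.03 for Gm24062 against 10.01 for *Naaladl2* in ALS 9 and of 9.62 for *Macrod2os1* against 5.57 for *Macrod2* in ALS 3. An eccDNA that overlaps a nested gene gives all of its reads to both genes, so that the reads left over belong to other circles, and each of these animals held at least 2 eccDNAs at the long gene. No placement was possible for the circles of *Fhit* and *Wwox*, nor for the 7924 reads at *Macrod2* in ALS 8 and the 2599 at *Naaladl2* in Control 1.

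**Figure D4:**
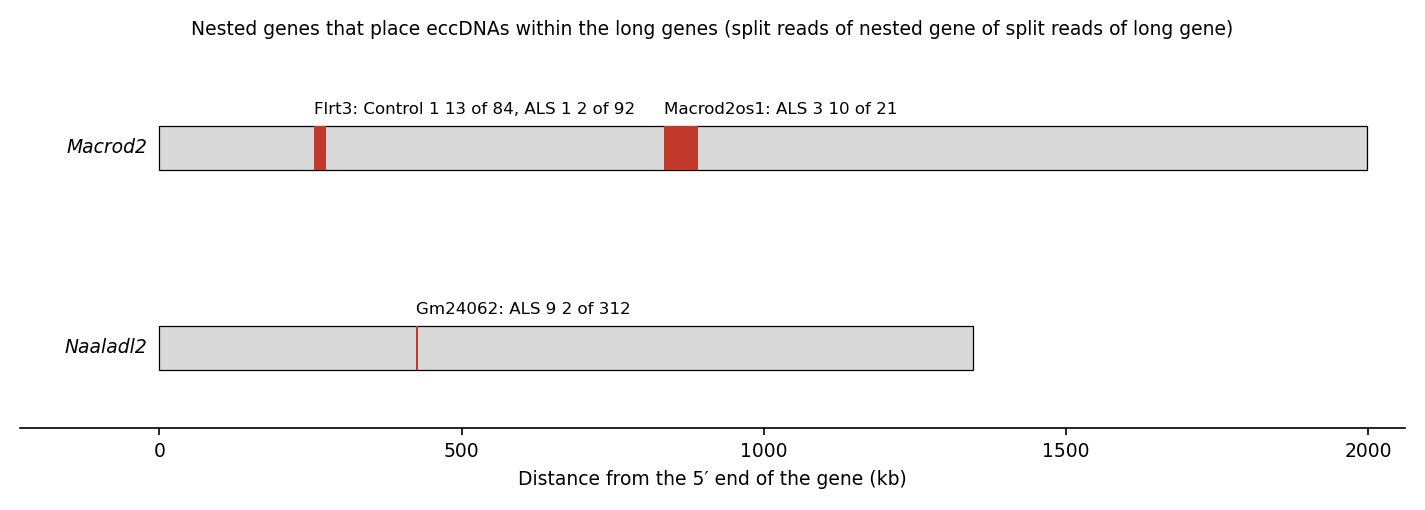
Positions of the nested genes with split reads (red) along *Macrod2* and *Naaladl2* (grey), to scale, as distance from the 5′ end in kb. The labels give the split reads of the nested gene out of those of the long gene in the same animal, 13 of 84 and 2 of 92 at *Flrt3*, 10 of 21 at *Macrod2os1* and 2 of 312 at Gm24062.

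Other long genes whose human counterparts lie at common fragile sites were taken as a list of 19, all of which were in the table. Their mean was higher in ALS for 19 of 19, as it was for 97% of the genes longer than 500 kb. The differences of the 19 ran from 0.984 to 5.90 with a median of 3.50, against 3.10 for those long genes. The median length of the 19 was 1220 kb. By the call used here 4 of the 19 passed, and 9 had an exact p under 0.05, which is close to the 24.1% and 46.6% of the genes longer than 500 kb. The 5 with the smallest exact p were *Csmd1*, a complement regulator (5.90, 9 of 9 ALS and 2 of 10 control animals), *Dlg2*, a synaptic scaffold (5.49, 9 and 4), *Immp2l*, a mitochondrial peptidase (4.34, 6 and 1), *Lrp1b*, a lipoprotein receptor relative (4.86, 8 and 3), and *Dpyd*, which degrades pyrimidines (4.93, 7 and 2). The first 4 of these were called, and *Dpyd* was not (exact permutation p = 0.0109). The 3 with the largest exact permutation p were *Dmd*, which encodes dystrophin (1.16, 6 and 4, p = 0.514), *Auts2* (1.22, 7 and 6, p = 0.454) and *Dab1*, an adaptor of reelin signalling (0.98, 4 and 2, p = 0.373). *Macrod2*, with 9 and 3, thus lay between *Csmd1* and *Dlg2* in its presence, and *Fhit*, with 8 and 6, was 1 animal away from *Auts2* and also from *Magi2*, with 8 and 5.

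Functional relatives of the 4 proteins, whose genes are mostly short, were seldom in the table. Of 4 other genes of the histidine triad family, 1 was in the table, *Hint3*, with an eccDNA in 1 control and no ALS animal. Of 4 other genes for removal of ADP-ribose, 2 were in the table, *Macrod1* with an eccDNA in 1 ALS animal and *Parg* in 1 control. The absence of *Adprs* may be one of name only, since no length was found for that symbol. Of 5 relatives of *Naaladl2*, *Folh1* and *Naalad2* were in the table, each with an eccDNA in 1 ALS animal. None of the 5 relatives found in the table was longer than 141 kb or passed the test.

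Among 6 genes whose proteins bind Wwox, 3 were in the table. *Erbb4*, a neuregulin receptor of 1080 kb, held an eccDNA in 7 ALS animals and no control, with a difference of 5.98 (exact permutation p = 0.000714). It was called, as were 24.1% of the genes longer than 500 kb, and had an adjusted p of the call of 0.278 over all genes. *Trp73*, a p53 relative of 84 kb, held one in 3 ALS animals and no control (3.08, exact permutation p = 0.0867). *Runx2*, a transcription factor of bone formation, held one in 2 ALS animals and 1 control (0.88, exact permutation p = 0.458).

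Genes with the most similar pattern were sought among 1275 genes with an eccDNA in at least 3 animals, by the number of the 19 animals in which both genes were present or both absent. Among the closest to *Macrod2* were *Cntnap2* with 18 and *Malrd1* with 17, the latter 1 of 10 genes tied at that count. Closest to *Fhit* were *Dlg2* and *Cntnap2* with 16 and *Lingo2*, 1 of 6 genes tied at 15. *Naaladl2* was matched by *Thsd7b* in 18 animals and by *Csgalnact1* and *Macrod2*, 2 of 7 tied genes, in 17. For *Wwox* 15 genes tied at 17 animals, of which *Nr3c2*, *Pcdh11x* and *5730522E02Rik* had the smallest mean difference in level, the measure by which all ties were broken. The named matches of *Fhit* were all genes of more than 1000 kb, while *Malrd1* spans 729 kb.

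In base composition the 4 genes differed from each other. *Wwox* had 54.2% A and T, below the median of 56.7% over all placed genes, and 2.59% of the genes longer than 500 kb had less. *Fhit* with 59.9% and *Macrod2* with 61.4% lay near the median of these long genes, 60.3%, and *Naaladl2* with 63.2% lay above 87.1% of them. Runs of strictly alternating A and T bases of at least 24 bp are a kind of flexible sequence noted at human fragile sites. They numbered 8.69 per Mb in *Fhit*, 9.86 in *Wwox*, 18.0 in *Macrod2* and 24.5 in *Naaladl2*, against a median of 14.8 in the long genes. Other stretches of A and T bases were not counted. The longest run was 50 to 57 bp in each of the 4. *Fhit*, of the 4 the gene found in the most controls, had the fewest alternating runs per Mb, and *Wwox*, found in the fewest, came next. A relation of such runs to eccDNA was not tested.

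The chromosomes of the members differed in how evenly the ALS libraries covered them. The share of a library's placed genes lying on chromosome 14, which holds *Fhit*, ranged from 1.10% in ALS 9 to 7.51% in ALS 8. In controls this share ranged from 4.09% to 10.9%. The chi-square per degree of freedom, which also grows with the number of genes in a library, was 12.0 in ALS and 0.839 in Control. ALS 8 also had the most *Fhit* reads, 427, and ALS 9 had 6. However, ALS 7, with a share of 1.70%, had 77, and ALS 1, with 4.52%, had none. The part of this variation in the *Fhit* result was not tested. On chromosomes 2 and 3, which hold *Macrod2* and *Naaladl2*, the chi-square per degree of freedom was 0.583 and 0.362 in ALS. On chromosome 8, which holds *Wwox*, it was 1.95. Chromosomes without a member also varied in ALS, with 20.6 on chromosome 1 and 13.2 on chromosomes 10 and 11, but 0.401 on chromosome 5.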

How the data were processed

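The authors digested linear DNA of each sample (400 ng) with exonuclease V for 7 days, amplified circles for 48 h, and ran Circle_Finder on paired-end reads against mm10. EccDNAs within 10 bp were merged, those with fewer than 2 split reads were dropped, and overlaps with GENCODE genes were found with bedtools. The GENCODE release is not given in the sources used here. The deposited unit is log2(PpGC + 1), scaled for gene length by the authors and not between samples. Sequencing depth per library is unknown here, and amplified reads are not independent molecules.

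From there, values were used as deposited, with 0 columns of other samples in the table. GENCODE release M21 placed 8088 genes and left 248. Undoing the length scaling with the longest gene (4434882 bp) gave whole split reads for 98.9% of 13763 values, within 0.02. Every gene was tested with Student's test for equal variances. Called genes had a difference above 1 and a two-sided p under 0.01, the thresholds of the study's methods, whose sides are not stated. Other p-values are from two-sided exact permutation or Fisher's exact tests, unless named otherwise. The tests were checked on simulated data, where the call missed most genes raised by amounts like those of the 4 genes, so that a gene that was not called may still differ.

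The 4 genes and all lists were chosen with earlier results of these data known. Named genes were the 4 members, nested genes in the table and the 3 most similar genes per member. Also named were the 5 smallest and 3 largest exact p among other fragile-site genes, all genes of the smaller lists found in the table, and *Adprs*. The result of 1 such gene is not reported here. Alternatives were the exact test, limma, Benjamini-Hochberg adjustment, load as covariate, a replicate block, equal totals, no length scaling, a pseudocount of 100, presence, split reads per 1000000, genes in at least 3 samples, and leaving out each sample. A one-sided p and presence from 10 split reads were chosen after seeing the data, as were the means per 1000000 without single libraries. Libraries shared at most 13.5% of genes in a pair, so all 19 were counted separately. No protein sequences were used here. Python 3.11.15, NumPy 2.4.6, pandas 2.3.3, SciPy 1.17.1, matplotlib 3.10.9, R 4.3.3 and limma 3.58.1 were used.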

Additional observations from a re-analysis of the deposited data

Results flagged for a closer look

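Of 8 sets of values, 4 genes in 2 groups, 3 held an animal far from the rest by Dixon's criterion, which chance meets in about 1 of 20 sets of continuous values. *Naaladl2* stood at a log2 level of 13.06 in Control 1, with a gap of 0.707 of the group's range to the next control, above the critical 0.466. *Macrod2* stood at 7.55 in the same animal, with a gap of 0.676. *Wwox* stood at 3.42 in Control 2, the only control with an eccDNA there, and its gap is therefore the whole range. In Control, 8 animals are at 0 for *Naaladl2*, 7 for *Macrod2* and 9 for *Wwox*, so that the rate of 1 in 20 does not apply to these sets.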

How the results depend on the processing

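In sets that left out 1 animal, the difference of *Fhit* ranged from 2.29 to 3.57, of *Wwox* from 2.87 to 4.24, of *Macrod2* from 3.90 to 5.60 and of *Naaladl2* from 3.90 to 5.67, and all stayed positive. With library load (genes holding an eccDNA) as covariate, *Wwox* turned to -0.849 (p = 0.73) and *Naaladl2* to -2.76 (p = 0.337), and *Macrod2* fell to 0.0743, all by permutation of the residuals. Per 1000000 split reads on genes, the difference turned to -57 for *Fhit* and -2210 for *Naaladl2*, and *Macrod2*, at 3170, lost its call. *Macrod2* also lost it with equal totals per sample (3.77, Student p = 0.0188) and with a pseudocount of 100 (1.32, Student p = 0.106). The same held with limma or Student p-values adjusted over all genes, which leave its difference at 4.90. Passing was *Wwox* with a one-sided p (3.73, one-sided Student p = 0.00853), a setting added after seeing the data. *Naaladl2* passed by presence, 68.9 percentage points higher in ALS, which was lost when presence was counted from 10 split reads (45.6 points, Fisher's exact p = 0.0573). The 111 called genes of the table became 6 with adjusted Student p, 11 with adjusted limma p, 68 with the exact permutation p, 166 with limma's unadjusted p under 0.01 and 189 with a one-sided p, and stayed 111 among genes in at least 3 samples. The cause of these changes was not tested. The median difference of all genes was 1.19 as deposited, 1.08 with equal totals, 0.35 without length scaling and 0.39 with a pseudocount of 100.

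Replicate numbers do not pair the animals: deviations of the 9 same-numbered pairs correlated between -0.0205 and 0.0226. With the replicate block, the differences were 2.51 for *Fhit*, 3.69 for *Wwox*, 4.76 for *Macrod2* and 4.21 for *Naaladl2* (exact sign-flip p = 0.223, 0.0625, 0.00391 and 0.0391), which changed no call. For *Wwox*, where 5 of the 9 pairs differ, 0.0625 is the smallest p this test can give, so it could not have passed.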
